A study of Homo sapiens with 6 samples.

Results

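Toll-like receptor 4 (TLR4), the receptor for bacterial lipopolysaccharide, was followed together with 9 other genes of Toll-like receptor signalling in parental and drug-resistant MDA-MB-231 cells. The 10 genes are the receptors TLR2, TLR3, TLR4 and TLR6, the TLR4 co-receptor LY96, the adaptors MYD88, TIRAP and TICAM1, and the kinases IRAK1 and IRAK4. They were picked by symbol because TLR4 differed between the resistant lines. All 10 symbols matched 1 Ensembl identifier each among the 69292 in the count table, and 9 of them passed the filter on low counts that left 21223 genes to test. TLR2 did not pass it.

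MDA-MB-231 is a human triple-negative breast cancer line, described by its labels as mesenchymal and stem-like. Bulk RNA sequencing was done on 6 libraries in 3 groups of 2. The parental cells received no drug according to the protocol, while a label field names DMSO, the usual drug solvent. One derivative, MDA-MB-231/DREVE, was kept for several months in 20 µM everolimus, and the other, MDA-MB-231/DRRIDA, in 30 µM ridaforolimus. Both drugs are analogs of rapamycin that inhibit the kinase mTOR. Each resistant line is a single derivative sampled in its drug, so that resistance, drug exposure and drift in culture cannot be told apart. The labels do not say whether the 2 libraries of a group came from separate cultures. The p-values below therefore weigh each change only against the spread between these libraries.

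Toll-like receptors recognise microbial molecules and products of damaged cells, at the cell surface (TLR2, TLR4, TLR6) or in endosomes (TLR3). TLR4 needs the small secreted protein MD-2, encoded by LY96, to bind lipopolysaccharide, and receives it from LBP and CD14. Signals then pass either through TIRAP and MYD88 to the kinases IRAK4 and IRAK1 and on to NF-kB and MAP kinases, or through TICAM1 (TRIF) to the interferon-regulatory factor IRF3. The pathway is best known in macrophages and dendritic cells, and many carcinoma lines express parts of it.

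Library totals ranged from 13134567 to 15556246 counts. Levels are given as CPM, counts scaled to a common library size after TMM normalisation, and changes as log2 values with their standard error. A change was called when the Benjamini-Hochberg adjusted p of edgeR's quasi-likelihood test over all 21223 genes was under 0.05. In this test 1 gene (0.00471%) was called in the everolimus line against parental cells and 68 (0.320%) in the ridaforolimus line, and at an unadjusted p under 0.05 the shares were 8.79% and 14.5%. Libraries of 1 group differed by more than sampling noise. The gap was wide in both resistant lines for NF-kB target genes, which were high in everolimus library 1 and ridaforolimus library 2, so values of both libraries are printed throughout.

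TLR4 was highest in the everolimus line and lowest in the ridaforolimus line. Its level was 28.6 and 31.1 CPM in the parental libraries, 67.1 and 76.0 CPM in the everolimus libraries and 16.6 and 19.1 CPM in the ridaforolimus libraries. No 2 groups overlapped, and the libraries of a group lay close together, with means of 29.8 ± 1.76, 71.5 ± 6.27 and 17.9 ± 1.79 CPM (SD, n = 2). These levels rest on 218 to 1149 counts per library. The everolimus line stood 2.40-fold above parental cells (log2 difference 1.26 ± 0.19), and parental cells 1.67-fold above the ridaforolimus line (-0.74 ± 0.19 for ridaforolimus minus parental). Between the resistant lines the fitted difference was -2.0 ± 0.20 (ridaforolimus minus everolimus), or 4.0-fold. TLR4 was chosen for this contrast, so these values are a description and no test is given. Per kilobase of annotated exon TLR4 reached 2.25 CPM in parental, 5.39 in everolimus and 1.35 in ridaforolimus cells, and its mean over the 6 libraries lay at the 46.4th percentile of the tested genes. TLR4 (ENSG00000136869) lies on the plus strand of chromosome 9 at 117704175 to 117724730 in GRCh38. A second gene model on the same strand, ENSG00000285082, covers its whole span and held 0 to 1 counts per library.

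**Figure D1:**
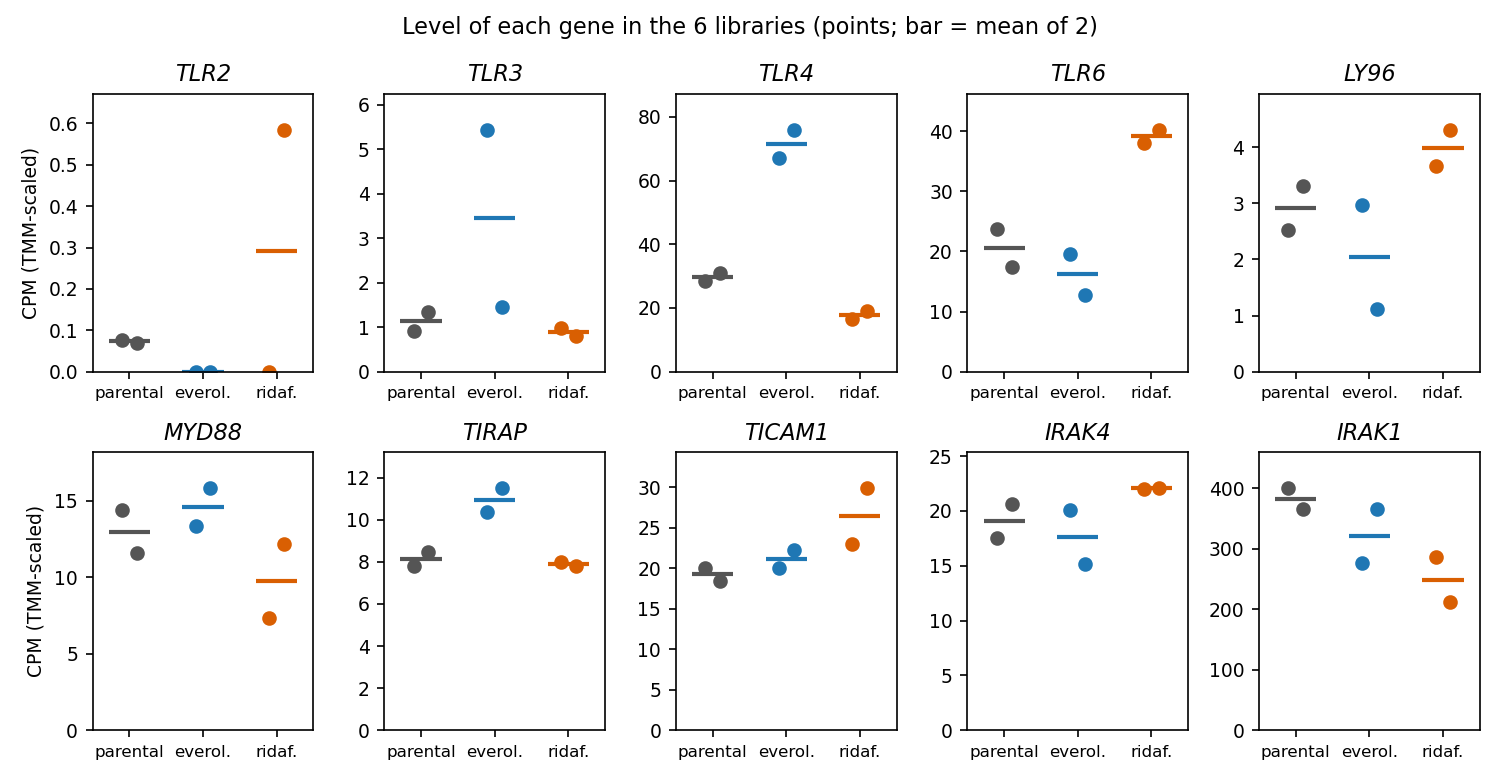
Level of each of the 10 genes in every library (points, CPM after TMM scaling, each axis starting at 0) with the mean of the 2 libraries of a group (bar). The TLR4 groups are apart in the order ridaforolimus, parental, everolimus, TLR6 is high in both ridaforolimus libraries (38.0 and 40.3 CPM), and the TLR3 mean of the everolimus line rests on 1 library at 5.43 CPM.

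In myeloid cells TLR4 is transcribed under the ETS-family factor PU.1, which binds purine-rich sites around the letters GAGGAA. These letters were therefore searched on both strands in the 250 bases before the RefSeq start of each gene (GRCh38.p14), where 8 of the 10 genes had an entry and LY96 and TIRAP had none. The letters occurred 4 times before the RefSeq start of TLR4. GENCODE 29, the source of the gene positions given here, starts TLR4 farther upstream, so all 4 matches lie inside its annotated span and are not upstream of that gene model. At least 1 match was found in 23.6% of 35116 such windows, and at least 4 matches in 18 of them (0.0513%). Of the 8 genes 3 had a match, TLR4, TLR6 and MYD88. The 4 TLR4 matches and the single match before TLR6, the member with the highest estimate in the ridaforolimus line, are shown as 30 bases each, read along the strand of the gene with the match in capitals. TTCCTC is the same site on the other strand.
TLR4, 224 bases before the RefSeq start, chr9:117704167-117704196, plus strand: aagccaactagcTTCCTCttgctgtttctt
TLR4, 171 bases before the RefSeq start, chr9:117704220-117704249, plus strand: tcttcttctaacTTCCTCtcctgtgacaaa
TLR4, 99 bases before the RefSeq start, chr9:117704292-117704321, plus strand: tgccgctttcacTTCCTCtcaccctttagc
TLR4, 40 bases before the RefSeq start, chr9:117704351-117704380, plus strand: gtggggcggctcGAGGAAgagaagacacca
TLR6, 195 bases before the RefSeq start, chr4:38856995-38857024, minus strand: tttgtaagttgcTTCCTCacacgaattaga
SPI1, the gene of PU.1, had 0 to 3 counts per library, at most 0.198 CPM, in all 3 groups. GAGGAA is also contained in sites of other ETS factors, and a match describes these letters only.

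A κB site, the motif of NF-kB, was matched before TICAM1 and IRAK1, in 2 of the 8 genes against 9.96% of all windows. The windows of these 2 genes are rich in G and C, at 69.2% and 82.4% against a median of 58% over all windows. The share over all windows was not adjusted for this, so nothing is read from the 2 matches. An interferon-stimulated response element was matched before the RefSeq start of MYD88 and in 3.02% of all windows. GENCODE 29 starts MYD88 farther upstream as well, at 38138478 on chromosome 3, so this match too lies inside the annotated gene. The MYD88 and TICAM1 matches are shown because the 2 genes head the separate branches of the pathway.
MYD88, response element 61 bases before the RefSeq start, chr3:38138590-38138619, plus strand: gcgcttctcgGAAAGCGAAAgccggcgggg
TICAM1, κB site 120 bases before the RefSeq start, chr19:4831813-4831842, minus strand: gggcgacccgGGGACTTTCCcggtgctgcg
The AP-1 site (TGANTCA), the cAMP response element (TGACGTCA) and the TATA box (TATAAA) had 0 matches in the 8 windows. Motifs were searched one by one, and no printed matches share bases.

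The partners that hand lipopolysaccharide to TLR4 had another order. LY96, whose product MD-2 forms the ligand pocket with TLR4, stood at 2.52 and 3.31 CPM in parental, 2.97 and 1.12 CPM in everolimus and 3.66 and 4.31 CPM in ridaforolimus libraries. Both ridaforolimus libraries were above the parental ones and the everolimus libraries overlapped them. The log2 fold changes were -0.52 ± 0.48 in the everolimus line and 0.45 ± 0.46 in the ridaforolimus line, and neither passed (edgeR's adjusted p = 0.800 and 0.700). LY96 is a short transcript of 607 annotated bases, so that its 17 to 59 counts per library correspond to 4.80, 3.37 and 6.56 CPM per kilobase in parental, everolimus and ridaforolimus cells. On this scale the mean level of LY96 was above that of TLR4 in parental and ridaforolimus cells and below it in everolimus cells. The scale divides TLR4 by 13272 bases, the union of all its annotated exons, so this order depends on the lengths used. LY96 (ENSG00000154589) lies on the plus strand of chromosome 8 at 73991352 to 74029087.

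LBP, the serum protein that carries lipopolysaccharide, was lower in all 4 resistant libraries than in either parental one. It stood at 12.5 and 6.41 CPM in parental cells, at 1.52 and 0.0661 CPM in the everolimus line and at 0.0762 and 1.46 CPM in the ridaforolimus line. The low libraries held 1 count each, the higher ones 21 and 20. The estimates of -3.59 in both lines did not pass with this spread (adjusted p = 0.439 and 0.200). CD14, the membrane protein that presents lipopolysaccharide to TLR4, stood at 2.14 and 1.62 CPM in parental, 0.942 and 0.331 CPM in everolimus and 0.686 and 1.61 CPM in ridaforolimus libraries, with estimates of -1.56 and -0.70 that did not pass (adjusted p = 0.531 and 0.619). Of the 12 receptor partners and trafficking factors 8 were tested and 0 passed in either line. The medians were -0.17 and -0.20, beside 0.02 and 0.01 over all genes tested. UNC93B1, which brings endosomal receptors to their compartment, stood at -0.18 and -0.20, and the receptor chaperone HSP90B1 at -0.13 and 0.13.

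TLR6, which pairs with TLR2 to sense diacylated lipopeptides, went the other way from TLR4. It stood at 23.7 and 17.5 CPM in parental, 19.6 and 12.8 CPM in everolimus and 38.0 and 40.3 CPM in ridaforolimus libraries. Both ridaforolimus libraries were above all others, and the everolimus and parental libraries overlapped. The estimate in the ridaforolimus line was 0.93 ± 0.26 (95% interval 0.32 to 1.54), a 1.90-fold higher mean, and did not pass over all genes (adjusted p = 0.191). In the everolimus line it was -0.35 ± 0.27 (adjusted p = 0.751). Without the filter on low counts the ridaforolimus estimate of TLR6 had adjusted p = 0.0348.

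TLR1, the neighbour of TLR6 and another partner of TLR2, had the same order of group means at a lower level. Its libraries stood at 3.13 and 4.65 CPM in parental, 2.61 and 1.65 CPM in everolimus and 5.56 and 6.50 CPM in ridaforolimus cells. The 3 groups did not overlap, yet the estimates of -0.87 and 0.63 did not pass (adjusted p = 0.566 and 0.463). TLR6 (ENSG00000174130) lies on the minus strand of chromosome 4 at 38823715 to 38856817, and in GENCODE 29 its whole span of 33103 bases lies within that of TLR1 on the same strand. The coding parts of both genes are also closely alike, so the split of reads between TLR1 and TLR6 is uncertain.

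TLR3, the endosomal receptor for double-stranded RNA that signals through TICAM1, was low. Its level was 0.917 and 1.34 CPM in parental, 5.43 and 1.45 CPM in everolimus and 0.991 and 0.804 CPM in ridaforolimus libraries. The everolimus mean rested on library 1, with 75 counts, while the other 5 libraries held 11 to 22. The estimates were 1.59 ± 0.62 and -0.33 ± 0.69 (adjusted p = 0.531 and 0.864), and without everolimus replicate 1 the first became 0.36. TLR3 (ENSG00000164342) lies on chromosome 4 at 186069152 to 186088069.

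TLR2, the common partner of TLR1 and TLR6, was at the detection limit. Each parental library held 1 count, both everolimus libraries 0, ridaforolimus library 1 held 0 and ridaforolimus library 2 held 8. The 0 counts of the everolimus line allow up to 3 counts over both libraries, and no fold is given. The remaining receptors of the family were low as well. TLR5, the flagellin receptor, ranged from 0.457 to 2.63 CPM, both of these in the ridaforolimus line, TLR10 reached at most 1.24 CPM, TLR7 and TLR8 held 0 to 3 counts per library, and TLR9 had 0 counts in every library. Of the 10 receptors of the family 5 passed the filter on low counts, and of the 4 other than TLR4, 0 were called in either line against parental cells.

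Among the adaptors, MYD88, which links nearly all Toll-like receptors to the IRAK kinases, stood at 14.4 and 11.6 CPM in parental, 13.3 and 15.8 CPM in everolimus and 7.32 and 12.1 CPM in ridaforolimus libraries. Neither resistant line was apart from the parental cells. The estimates were 0.17 ± 0.30 and -0.41 ± 0.30 (adjusted p = 0.911 and 0.565), and their 95% intervals ran from -0.51 to 0.85 and from -1.10 to 0.28. TIRAP, the bridge between TLR2 or TLR4 and MYD88, had the parental level in the ridaforolimus line and a slightly higher one in the everolimus line. It stood at 7.79 and 8.45 CPM in parental, 10.4 and 11.5 CPM in everolimus and 8.0 and 7.82 CPM in ridaforolimus libraries. The estimates of 0.43 ± 0.24 and -0.04 ± 0.25 did not pass (adjusted p = 0.662 and 0.964). TIRAP shares part of its locus with the antisense transcript TIRAP-AS1, at 0.762 to 1.53 CPM, whose reads cannot be told apart from it without the strand setting of the counting.

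TICAM1, the adaptor of TLR3 and of endocytosed TLR4, was higher in both ridaforolimus libraries than in either parental one. It stood at 20.1 and 18.4 CPM in parental, 20.1 and 22.3 CPM in everolimus and 22.9 and 29.9 CPM in ridaforolimus libraries. The estimates were 0.14 ± 0.22 and 0.46 ± 0.22 (adjusted p = 0.899 and 0.388). TICAM2, which bridges TLR4 to TICAM1, held 0 to 5 counts per library and was not tested.

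IRAK1, the kinase that passes the signal from the receptor complex to TRAF6, had the highest level per kilobase of the 10 genes. It stood at 399.9 and 365.5 CPM in parental, 276.6 and 365.3 CPM in everolimus and 286.8 and 211.3 CPM in ridaforolimus libraries, and its mean per kilobase lay at the 98.3th percentile of the tested genes. Both ridaforolimus libraries were below both parental ones, while everolimus library 2 was at the lower parental level. The estimate in the ridaforolimus line was -0.62 ± 0.23 (95% interval -1.15 to -0.09, adjusted p = 0.288) and in the everolimus line -0.25 ± 0.23 (adjusted p = 0.800). IRAK1 (ENSG00000184216) lies near the end of the long arm of chromosome X, at 154010500 to 154019980 on the minus strand.

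IRAK4, the kinase that activates IRAK1, stood at 17.6 and 20.6 CPM in parental, 20.1 and 15.1 CPM in everolimus and 22.0 and 22.1 CPM in ridaforolimus libraries. Both ridaforolimus libraries were just above the parental range. The estimates were -0.12 ± 0.23 and 0.21 ± 0.23 (adjusted p = 0.922 and 0.728). Per kilobase IRAK4 had 3.39, 3.13 and 3.92 CPM in the 3 groups, against 95.7, 80.2 and 62.2 for IRAK1.

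**Figure D2:**
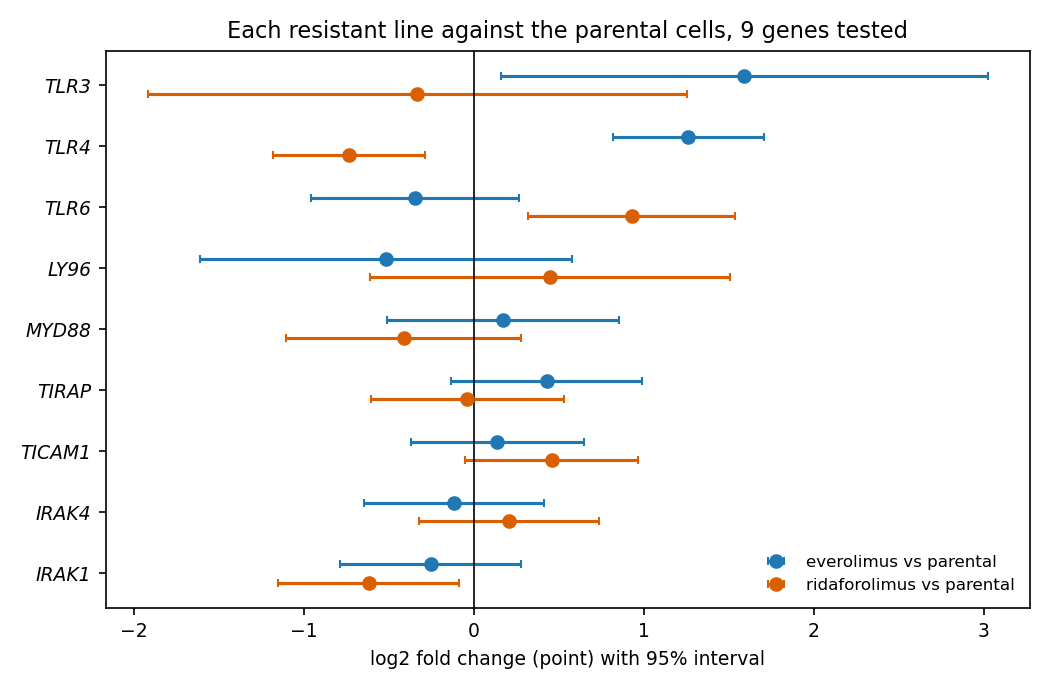
Log2 fold change of 9 genes in each resistant line against parental cells (points) with the 95% interval of the fit (bars). TLR4 (1.26 and -0.74) and TLR6 (-0.35 and 0.93) have estimates of opposite sign in the lines. So do TLR3, LY96, MYD88, TIRAP and IRAK4. The estimates of TICAM1 lie above 0 and those of IRAK1 below 0 in both lines. Of their intervals only that of IRAK1 in the ridaforolimus line leaves out 0.

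Across the members, 0 of the 8 tested genes other than TLR4 were called in either line, where 0.00471% and 0.320% of all genes were. Among the 9 tested genes, TLR4 included, the libraries did not overlap with the parental ones for 4 in the everolimus and 6 in the ridaforolimus line. Over all genes tested these shares were 41.1% and 49.4%. The medians of the 9 estimates were 0.14 and -0.04. Between the resistant lines 8 of the 9 did not overlap, against 41.2% of all genes, but the choice of the genes rests on that contrast and nothing is read from this count. In that contrast the log2 differences, ridaforolimus minus everolimus, were -1.92 for TLR3, 1.27 for TLR6, 0.97 for LY96, -0.58 for MYD88, -0.47 for TIRAP, 0.32 for TICAM1, 0.33 for IRAK4 and -0.37 for IRAK1, given as a description. The comparisons of the resistant lines share the 2 parental libraries.

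The wider pathway was read from lists of its other components. Of all genes tested only 0.00471% were called in the everolimus and 0.320% in the ridaforolimus line. A count of 0 in lists of this size, the receptor partners above included, therefore says little about their genes. Of the 23 adaptors and proximal kinases 22 were tested, 0 passed in either line, and the medians were 0.14 and 0.06. The largest estimate belonged to PELI2, a ubiquitin ligase of the Pellino family that acts on IRAK proteins. PELI2 stood at 1.45 and 0.704 CPM in parental, 7.75 and 5.42 CPM in everolimus and 4.42 and 4.68 CPM in ridaforolimus libraries. All 4 resistant libraries were above both parental ones, with estimates of 2.61 ± 0.42 and 2.08 ± 0.43 (adjusted p = 0.205 and 0.0995). Its relative PELI1 stood at 14.6 and 14.8 CPM in parental cells and at 9.28 to 10.2 CPM in the 4 resistant libraries (-0.53 and -0.63, adjusted p = 0.561 and 0.277). IRAK3, which lacks kinase activity and restrains MYD88 signalling, was low throughout, with 1.30 and 1.90 CPM in parental, 0.507 and 0.463 CPM in everolimus and 1.14 and 0.804 CPM in ridaforolimus libraries.

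The 13 genes of the IKK and NF-kB core were all tested and 0 passed, with medians of -0.07 and -0.04. The subunit RELA stood at -0.13 and -0.15 and NFKB1 at 0.21 and 0.08. NFKBIB, an inhibitor that holds NF-kB in the cytoplasm, was lower than both parental libraries in all 4 resistant ones (-0.45 and -0.93, adjusted p = 0.650 and 0.174). Of the 11 genes of the MAP kinase arm 0 passed (medians -0.09 and -0.20), with the p38 kinase MAPK14 at -0.23 and -0.46. Its activators differed in sign. MAP2K6, at 1.30 to 5.22 CPM, had estimates of 1.33 and 0.90 (adjusted p = 0.447 and 0.354). MAP2K3, at 80.1 to 167.3 CPM, had -0.89 and -0.28 (adjusted p = 0.506 and 0.709). Of the 16 brakes of the pathway 13 were tested and 0 passed (medians -0.00 and 0.24). SIGIRR, a receptor-like inhibitor of Toll-like and IL-1 receptors, was above the parental libraries in all 4 resistant ones, at 9.13 and 8.53 CPM in everolimus and 6.78 and 11.5 CPM in ridaforolimus against 4.89 and 3.94 CPM in parental cells (estimates 1.00 and 1.05, adjusted p = 0.506 and 0.230).

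For several known outputs of the pathway the 2 libraries of a resistant line lay far apart. TNFAIP3 (A20), a deubiquitinase that NF-kB induces and that switches it off, stood at 28.1 and 26.9 CPM in parental, 94.0 and 16.9 CPM in everolimus and 22.3 and 99.7 CPM in ridaforolimus libraries. The inhibitor NFKBIA, a target of the same kind, stood at 116.4 and 103.4, 262.1 and 70.8, and 76.8 and 253.9 CPM. The neutrophil chemokine CXCL8 stood at 24.5 and 26.7, 81.9 and 7.60, and 42.3 and 128.7 CPM. In each case everolimus library 1 and ridaforolimus library 2 were the high ones. Of the 15 tested genes among 20 NF-kB targets, 13 were higher in both of these libraries than in the other library of their line, against 31.3% of all genes tested. The order was read from such targets in these same data, so the count is a description and no test. The median gap was 1.44 log2 units in the everolimus and 1.60 in the ridaforolimus line, and the summed level of the 20 genes was 837.2 against 310.0 CPM and 826.5 against 342.0 CPM. TLR4 shared this order in the ridaforolimus line (19.1 CPM in library 2 against 16.6 CPM in library 1) but not in the everolimus line, where library 1 was the lower (67.1 against 76.0 CPM). The part of this library difference in the group means of the targets was not tested.

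**Figure D3:**
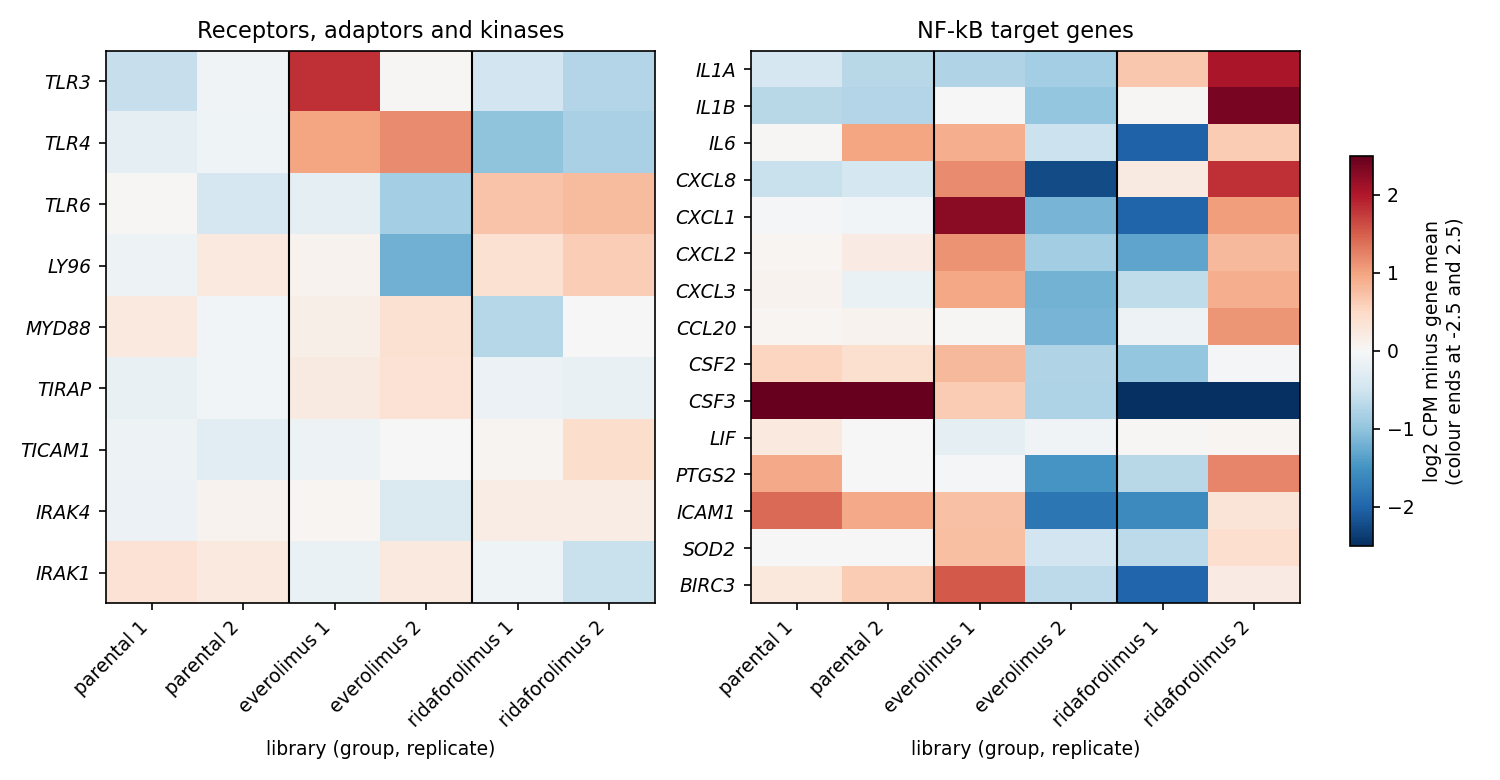
Log2 CPM of each gene minus its mean over the 6 libraries (colour, red above and blue below the mean) for the 9 tested receptors, partners, adaptors and kinases and for the 15 tested NF-kB targets; columns are libraries. TLR4 is alike in the 2 libraries of each line, while 13 of the 15 targets are higher in everolimus library 1 and ridaforolimus library 2 than in the other library of the line.

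Of these 15 targets 1 passed in the ridaforolimus line and 0 in the everolimus line, with medians of -0.02 and -0.23. CSF3, which encodes the granulocyte growth factor G-CSF, fell from 16.3 and 22.5 CPM in parental to 0.229 and 0.219 CPM in ridaforolimus libraries (-6.38 ± 0.62, adjusted p = 0.0109), and stood at 3.91 and 1.39 CPM in the everolimus line (-2.88, adjusted p = 0.205). The ridaforolimus level rests on 3 counts in each library, and the call was lost without parental replicate 1, parental replicate 2 or ridaforolimus replicate 2 (edgeR's adjusted p = 0.0655, 0.0906 and 0.0667). In the ridaforolimus line 7 of the 15 targets did not overlap with the parental libraries, against 49.4% of all genes tested. Of these 7, 3 were higher and 4 lower. The lower ones were CSF3, CSF2, BIRC3 and ICAM1 (-1.55 for ICAM1, adjusted p = 0.411), and CXCL8 was among the higher. IL1A and IL1B, which encode the 2 forms of interleukin-1, were above the parental range in both ridaforolimus libraries. IL1A stood at 13.2 and 34.3 CPM there against 6.11 and 5.07 CPM in parental cells (2.09, adjusted p = 0.101), and IL1B at 14.1 and 71.8 CPM against 8.48 and 8.24 CPM (2.36, adjusted p = 0.190). TNF held 0 to 2 counts per library.

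Of the 13 genes of the TRIF and interferon arm 9 were tested and 0 passed in either line. All 9 had estimates below 0 in ridaforolimus cells, their median being -0.42 beside 0.01 for all genes, and 4 were above 0 in the everolimus line (median -0.11). ISG15, a ubiquitin-like protein induced by interferon, stood at 33.5 and 38.9 CPM in parental, 21.2 and 31.3 CPM in everolimus and 13.0 and 11.0 CPM in ridaforolimus libraries (-1.59 in the last, adjusted p = 0.0543). IRF1, an interferon-regulatory transcription factor, was above the parental libraries in both everolimus libraries, with 86.1 and 48.8 CPM against 34.8 and 21.8 CPM (1.25, adjusted p = 0.430). IFNB1, the interferon that TRIF signalling induces, had 0 counts in every library.

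The IL-1 receptor family uses the same MYD88 and IRAK proteins. Of its 10 genes 3 were tested and 0 passed. IL1RAP, the shared co-receptor, stood at 48.9 and 25.8 CPM in parental, 20.2 and 10.1 CPM in everolimus and 46.0 and 74.4 CPM in ridaforolimus libraries (estimates -1.30 and 0.69, adjusted p = 0.496 and 0.479). Among 11 proteins described as endogenous TLR ligands 5 were tested and 0 passed. FN1, fibronectin, stood at 1363 and 1081 CPM in parental, 2827 and 2346 CPM in everolimus and 1204 and 5286 CPM in ridaforolimus libraries, and TNC, tenascin-C, at 143.6 and 66.9, 61.5 and 26.6, and 97.0 and 129.0 CPM.

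TLR4 and its partners are typical of myeloid cells, so markers of other cells were read in the same libraries. Of 10 monocyte and macrophage markers 8 stayed below 1 CPM in every library, among them the pan-leukocyte PTPRC at no more than 0.511 CPM, and the other 2 were CD14 and CSF1R. Their summed level was 4.37 to 7.56 CPM in parental, 4.49 to 7.03 CPM in everolimus and 4.04 to 5.26 CPM in ridaforolimus libraries. CD163 had 0 counts in every library, and LYZ at most 0.0764 CPM. The 8 lymphocyte markers summed to 0.534 to 1.38 CPM. Of 8 fibroblast markers 5 stayed below 1 CPM, and their sum, mostly COL1A1, was 6.66 to 16.7 CPM. The 7 endothelial markers summed to 12.5 to 17.8 CPM in parental, 12.1 to 19.3 CPM in everolimus and 16.1 to 29.4 CPM in ridaforolimus libraries, where TIE1 rose (4.15, edgeR's adjusted p = 0.0145). The TIE1 call too was lost without either parental replicate or ridaforolimus replicate 2 (adjusted p = 0.178, 0.214 and 0.0614). All 10 markers expected of MDA-MB-231, VIM, CD44 and AXL among them, were present, summing to 3527 to 5279 CPM. The 7 markers of luminal breast cells summed to 74.8 to 184.9 CPM, so they were not absent as a set. Of these 7, 3 stayed below 1 CPM in every library, ESR1 and PGR among them. In bulk RNA, fewer cells expressing a gene and less RNA per cell cannot be told apart.

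The genes whose pattern was nearest to that of TLR4 were found by the root mean square difference of centred log2 CPM over the 6 libraries, among 18221 other genes with a mean of at least 1 CPM. The nearest was LFNG, a glycosyltransferase that modifies Notch receptors, with a difference of 0.0903 and Pearson's r = 0.995 over 6 libraries. LFNG stood at 19.9 and 23.2 CPM in parental, 45.7 and 46.0 CPM in everolimus and 11.4 and 13.2 CPM in ridaforolimus libraries. ZFP36L2, an RNA-binding protein that promotes decay of AU-rich transcripts, was the third (0.195, r = 0.9754) and ANXA8, an annexin with near-identical copies in the genome, came next (0.202, r = 0.9752). The second and the fifth were ENSG00000289206 and ENSG00000251654, which have no symbol in the table used. The r values describe 3 groups of 2 libraries, with no p.

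Neighbouring genes were read in the same fit. Within 5 Mb of its start 57 other genes were tested, with medians of -0.06 in the everolimus and -0.03 in the ridaforolimus line. One of them, the unnamed ENSG00000271214 with a mean of 0.925 CPM, was as high as TLR4 in the everolimus line, and 8 were as low in the ridaforolimus line. The nearest tested protein-coding genes were TRIM32 (0.17 and 0.26), ASTN2 (-0.03 and 0.45) and PAPPA (0.24 and 0.60) on one side and CDK5RAP2 (0.04 and 0.18), MEGF9 (-0.18 and -1.58) and FBXW2 (-0.01 and -0.05) on the other. The closest tested gene of any kind, chosen for mention after its values were seen, was the long non-coding ENSG00000284977, which starts 55.3 kb downstream at 117759455 on the same strand. It stood at 1.53 and 1.06 CPM in parental, 2.90 and 2.05 CPM in everolimus and 0.457 and 0.658 CPM in ridaforolimus libraries, the same order as TLR4 at 6 to 40 counts per library (0.93 and -1.19, adjusted p = 0.583 and 0.326).

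IRAK1 lay among genes with estimates mostly below 0 in the ridaforolimus line. Within 5 Mb of it 56 of the 68 other tested genes had estimates below 0 there (median -0.43), and 25 were as low as IRAK1 at -0.62. In the everolimus line 37 were below 0 (median -0.07). The actin crosslinker FLNA, one of these genes, stood at -0.08 in the everolimus and -0.68 in the ridaforolimus line. Around TLR6, a region added after its values were seen, the median of 50 genes was 0.17 in the ridaforolimus line and 0 of them reached the 0.93 of TLR6. FAM114A1, the nearest protein-coding gene on one side of it, stood at -0.65 and 0.75.

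**Figure D4:**
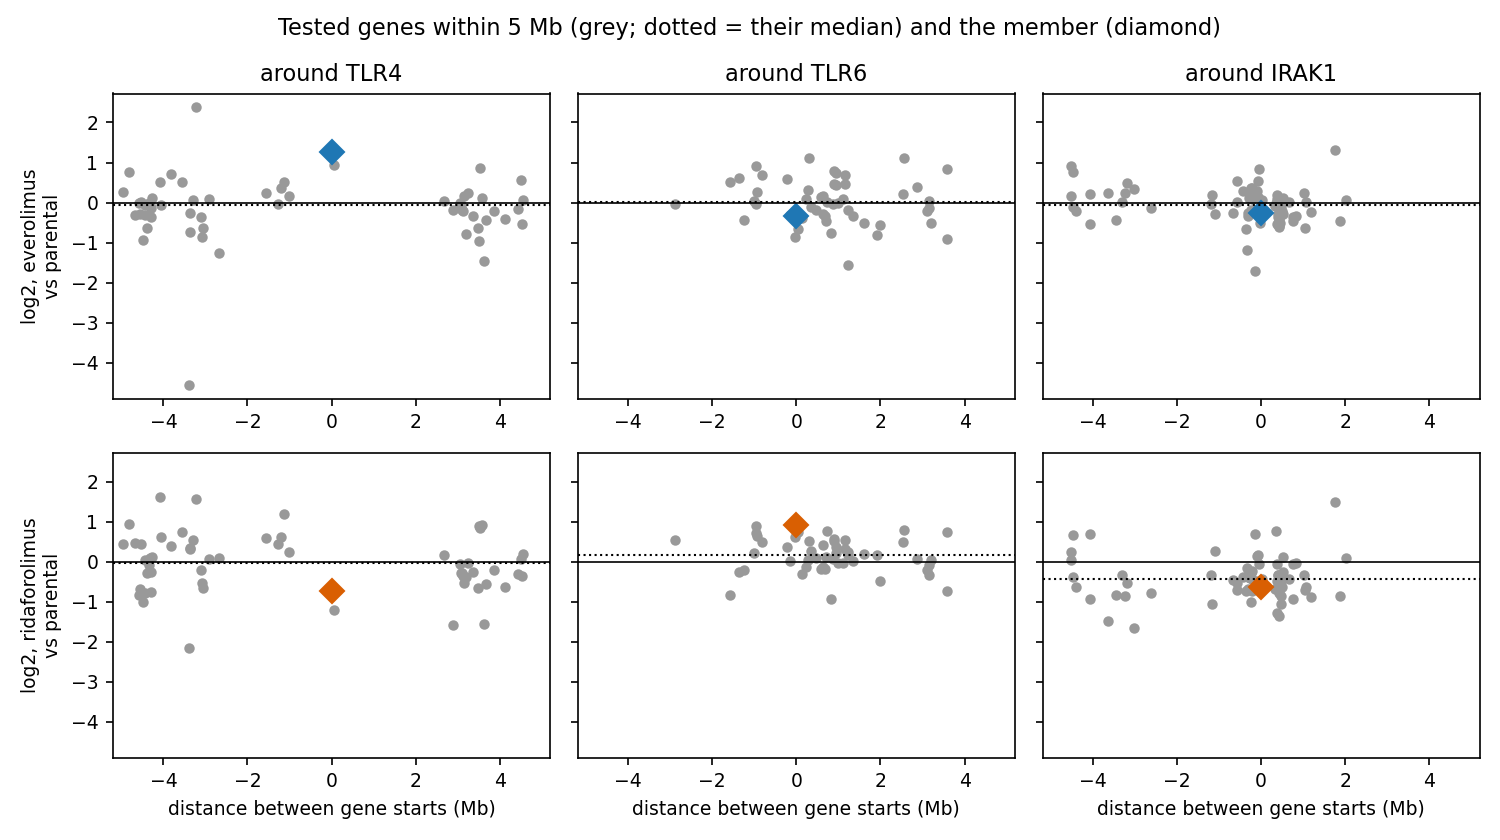
Log2 fold change against parental cells of tested genes within 5 Mb (grey points, dotted line at their median) of TLR4, TLR6 and IRAK1 (diamonds), by the distance between gene starts in Mb, for the everolimus line (top) and the ridaforolimus line (bottom). The start of a gene is here its lower coordinate, whatever its strand. TLR4 lies above its neighbours' median in the top row and below it in the bottom row, while the neighbours of IRAK1 in the ridaforolimus line have a median of -0.43.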

How the data were processed

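The authors deposited a table of raw counts by Ensembl identifier for the 6 libraries. Trim Galore 0.6.6, STAR 2.7.9a, HTSeq 0.13.5, DESeq2 and GRCh38 are named without roles, per the submitters' processing notes. The sources used here give neither the strand setting nor the annotation release. Symbols came from a gene table (62625 identifiers matched), and positions and exon lengths from GENCODE 29. Counts were filtered with filterByExpr and then scaled by TMM on the genes left. They were fitted in edgeR 4.0.16 (R 4.3.3) with glmQLFit on 3 groups and all 6 libraries, leaving 3 residual degrees of freedom. All p-values are two-sided and adjusted over 21223 genes. The procedure was tested on simulated data. DESeq2 1.42.0 and limma 3.58.1 (voom), other scalings and filters, a replicate block and leaving out each library were alternatives. The members and lists were chosen with earlier results of these data known. Named were all members, called list genes, up to 4 more per list with the largest estimates among genes averaging 1 CPM or more, the 5 genes most like TLR4 and the nearest neighbours, 3 on each side of TLR4 (around IRAK1 and TLR6 only some are printed, and 1 result is not reported here); other list genes are given as values, chosen after these were seen. Promoter windows and sites came from RefSeq (GRCh38.p14). Protein sequences were not used here.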

Additional observations from a re-analysis of the deposited data

Results flagged for a closer look

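TLR4 was flagged because every everolimus library lay above both parental libraries and every ridaforolimus library lay below both. The difference between the resistant lines was -2.0 on the log2 scale (ridaforolimus minus everolimus). It was not tested, since TLR4 was chosen for it.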

How the results depend on the processing

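The TLR4 difference between the resistant lines lay between -2.10 and -1.91 in all 14 alternatives, that in the everolimus line between 1.16 and 1.35 and that in the ridaforolimus line between -0.84 and -0.65. Of the other members, 0 were called in 13 alternatives, and 1, TLR6 in the ridaforolimus line, without the low-count filter (adjusted p = 0.0348; 0.0348 to 0.731 over its alternatives). Signs near 0 turned for TIRAP in the ridaforolimus line (0.0127 with library size alone, 0.00453 with at least 5 CPM in 2 libraries, and -0.104 to 0.0175 when leaving out 1 library, the highest without parental replicate 2), for IRAK4 in the everolimus line (-0.331 to 0.0635, above 0 without parental replicate 2 or everolimus replicate 2) and for LY96 in the everolimus line (-1.37 to 0.0173, above 0 without everolimus replicate 2). TLR3 and LY96 did not pass the filter of 5 CPM. The cause of these changes was not tested.

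Genes called in the everolimus, ridaforolimus and direct comparisons were 1, 68 and 158. They became 493, 1195 and 1362 without the filter, 147, 575 and 658 with DESeq2, 0, 127 and 0 in fits to only the groups compared, 0 and 81 in the first and the third with at least 5 CPM, and 0 in the first with library size alone. Leaving out 1 library gave 0 to 3, 1 to 276 and 19 to 123 genes. In the ridaforolimus comparison 1 gene was called without either parental replicate and 2 without ridaforolimus replicate 2, against 276 and 236 without everolimus replicates 1 and 2. A group left with 1 library is assumed to vary like the others. With a replicate block the counts were 0, 28 and 49. The labels tie replicate numbers to no batch or day. Deviations of equal numbers correlated at 0.33 between parental and everolimus libraries and at -0.17 and -0.19 in the pairs with ridaforolimus. Whether libraries of equal number share more than the number was not tested. The block changed no call of a member. TLR2, with 0 to 8 counts per library, was too low to test at this depth.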
